A study of Homo sapiens with 6 samples.

Results

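The 9 receptor genes described here belong to neural crest and neuroblastoma biology: the receptor tyrosine kinases ALK, LTK, RET, NTRK2 and NTRK3, the RET co-receptors GFRA1, GFRA2 and GFRA3, and the neurotrophin receptor NGFR. They were picked out by gene name, with earlier results of these data known, and are 9 of the 32862 genes in the table. The data are poly(A) RNA sequencing of SH-SY5Y, an established human neuroblastoma cell line, in 6 untreated libraries: 3 from wild-type (WT) cells and 3 from cells labelled as OTULIN knockout (KO), made with CRISPR-Cas9. OTULIN encodes a deubiquitinase that takes apart linear ubiquitin chains. All 6 libraries carry the same batch label. The labels do not say whether the KO cells are a single clone, nor whether the replicates are separate cultures, and the p-values therefore reflect the spread among these libraries alone, possibly a technical one.

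Receptor tyrosine kinases span the membrane and are switched on when a ligand brings receptor molecules together, which starts RAS-MAPK and PI3K-AKT signalling through adaptor proteins. RET needs a GFRα co-receptor held at the cell surface by a lipid anchor: GFRα1 presents GDNF, GFRα2 presents neurturin and GFRα3 presents artemin. ALK is mutated or amplified in a share of neuroblastomas, LTK is its closest relative, TrkB (NTRK2) answers BDNF, TrkC (NTRK3) answers neurotrophin-3, and p75 (NGFR) binds all neurotrophins but has no kinase.

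The KO-labelled libraries were far shallower than the WT libraries. Total counts were 725827 to 862932 in KO and 61772795 to 64352333 in WT, and 2306 to 2567 genes had a count in a KO library against 27453 to 27958 in a WT library. OTULIN itself had 0 counts in the 3 KO libraries and 31.5 ± 4.04 CPM in WT (counts per 1000000 of the library's total, SD, n = 3). Most genes shared that state: 71.3% of all tested genes were at 0 in KO. Genotype and library depth or composition cannot be told apart in this design. Neuroblastoma identity was checked with 15 marker genes: all 15 were detected in WT, with a summed level of 8871 to 9890 CPM, and 8 were at 0 in KO, where the sum was 1921 to 2290 CPM. The noradrenergic factor gene PHOX2A and the enzyme gene DBH were among those at 0. Their part in the results on the receptors was not tested.

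In WT cells the 9 receptors covered a wide range of levels. RET, the receptor of the GDNF family, was the highest, with deposited FPKM (fragments per kilobase, scaled to the library's fragments) of 23.8, 21.3 and 21.95 in WT replicates 1 to 3, a mean of 22.3 ± 1.28 (SD, n = 3). ALK followed at 16.3, 16.8 and 17.8 FPKM (16.96 ± 0.759). The lowest RET library lay above the highest ALK library, so the values of the 2 genes did not overlap. RET rested on 13288 to 14451 counts per library and ALK on 8143 to 8851, so counting error was small beside the spread. On the level scale RET stood at percentile 94.8 and ALK at percentile 92.7 of all genes in WT.

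The stretches just upstream of 4 of the genes are shown because RET, ALK and GFRA3 were the most abundant receptors in WT and NTRK3 was the only one that was higher in KO. They were taken from RefSeq's GRCh38.p14 (hg38) promoter table, run 5′ to 3′ on the gene's own strand, and stop where the gene begins in the deposited table. RET is chr10:43076819-43077063 on the plus strand, ALK is chr2:29921587-29921836, GFRA3 is chr5:138274622-138274871 and NTRK3 is chr15:88256792-88256989, all 3 on the minus strand. Capitals mark GGGCGG, the core of the GC box, read on either strand, and CAGCTG, an E-box.
RET: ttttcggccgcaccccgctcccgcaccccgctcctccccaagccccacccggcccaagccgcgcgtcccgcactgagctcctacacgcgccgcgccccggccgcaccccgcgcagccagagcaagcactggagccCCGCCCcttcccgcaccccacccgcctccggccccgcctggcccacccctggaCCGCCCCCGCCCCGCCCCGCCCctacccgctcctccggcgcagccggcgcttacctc
ALK: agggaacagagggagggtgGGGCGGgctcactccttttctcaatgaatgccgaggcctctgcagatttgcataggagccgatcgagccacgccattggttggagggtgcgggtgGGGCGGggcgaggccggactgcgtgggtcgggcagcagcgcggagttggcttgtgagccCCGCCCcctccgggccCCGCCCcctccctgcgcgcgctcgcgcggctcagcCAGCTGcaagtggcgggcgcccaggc
GFRA3: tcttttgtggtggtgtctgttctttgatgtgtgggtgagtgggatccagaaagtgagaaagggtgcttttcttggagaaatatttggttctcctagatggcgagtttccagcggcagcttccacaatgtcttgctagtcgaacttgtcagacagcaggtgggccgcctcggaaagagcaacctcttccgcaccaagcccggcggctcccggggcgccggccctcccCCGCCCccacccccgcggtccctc
NTRK3: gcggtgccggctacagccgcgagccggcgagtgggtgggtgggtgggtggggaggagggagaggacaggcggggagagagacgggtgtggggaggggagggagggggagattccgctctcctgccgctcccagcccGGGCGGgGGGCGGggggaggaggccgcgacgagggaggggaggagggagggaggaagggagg
The RET stretch holds GGGCGG 5 times, with runs that overlap one another near the gene, the ALK stretch 4 times, the NTRK3 stretch 2 times and the GFRA3 stretch 1 time. The letters CAGCTG stand only in the ALK stretch among these 4.

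Over the 250 bases before the RefSeq start, 7 of the 9 genes had an entry to compare. RET had 33 CpG dinucleotides there, as many as or more than 93.2% of 35116 human promoters cut to the same length. ALK had 24 and NTRK3 had 23, beside an upper quartile of 23 over all promoters. GFRA3 and LTK had 14 each, NTRK2 had 7 and GFRA1 had 5, on both sides of the median of 11. GGGCGG was found on either strand in 42.6% of all promoters, CAGCTG in 13.99%, and TATAAA, the core of the TATA box, in 10.7%. None of the 7 genes held TATAAA in this window. ATTA, a core read by homeodomain proteins, was in GFRA1 and NTRK2 and in 47.4% of all promoters. These matches describe the letters only. The 3 genes at or above the upper quartile of CpG were RET and ALK, the highest of the 9 in WT, and NTRK3, the lowest.

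The co-receptors of RET were unequal. GFRA3, the artemin co-receptor, had 9.33, 9.55 and 8.92 FPKM in the WT replicates (9.27 ± 0.318). GFRA2, the neurturin co-receptor, had 1.48, 1.28 and 1.39 FPKM (1.38 ± 0.0982). GFRA1, the GDNF co-receptor, had 0.0485, 0.0388 and 0.0473 FPKM (0.0449 ± 0.00531), from 30 to 36 counts per library. GFRA3 was thus the main co-receptor transcript in each WT library and GFRA1 was close to the bottom of the range. RET exceeded GFRA3 by 2.41 ± 0.165 times in FPKM, GFRA2 by 16.2 ± 0.396 times and GFRA1 by 500.5 ± 43.5 times (SD over the 3 WT libraries). GFRA3 exceeded GFRA2 by 6.73 ± 0.625 times.

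NGFR, the neurotrophin receptor without a kinase, led the neurotrophin receptors at 3.03, 2.69 and 2.56 FPKM (2.76 ± 0.241). NTRK2, the TrkB gene, had 0.260, 0.303 and 0.336 FPKM (0.300 ± 0.0379). NTRK3, the TrkC gene, had 0.0353, 0.0319 and 0.0359 FPKM (0.0344 ± 0.00217) from only 61 to 66 counts per WT library. The order NGFR, NTRK2, NTRK3 held in every WT library with no overlap. LTK, the relative of ALK, had 0.108, 0.0798 and 0.0798 FPKM (0.0892 ± 0.0162) from 19 to 27 counts, and ALK exceeded it by 195 ± 38.6 times.

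The full WT order in FPKM was RET, ALK, GFRA3, NGFR, GFRA2, NTRK2, LTK, GFRA1 and NTRK3, and none of the 8 neighbouring pairs overlapped over the 3 libraries. The deposited FPKM divide a gene's count by 1 fixed length. That length was a median of 1.09 times the union of the gene's GENCODE 29 exons over 16286 genes. For NTRK2 it was 36297 bases, 4.20 times the longest annotated transcript of 8633 bases, and for RET it was 9787 bases against 5659. On a scale of CPM per kilobase of the longest transcript, chosen after seeing the data, NTRK2 rose to 1.26 ± 0.161 beside GFRA2 at 1.77 ± 0.127, and the order of the means stayed the same. On that scale GFRA1 (0.0506 to 0.0628) and NTRK3 (0.0474 to 0.0535) overlapped, so these 2 genes at the bottom were not separated.

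**Figure D1:**
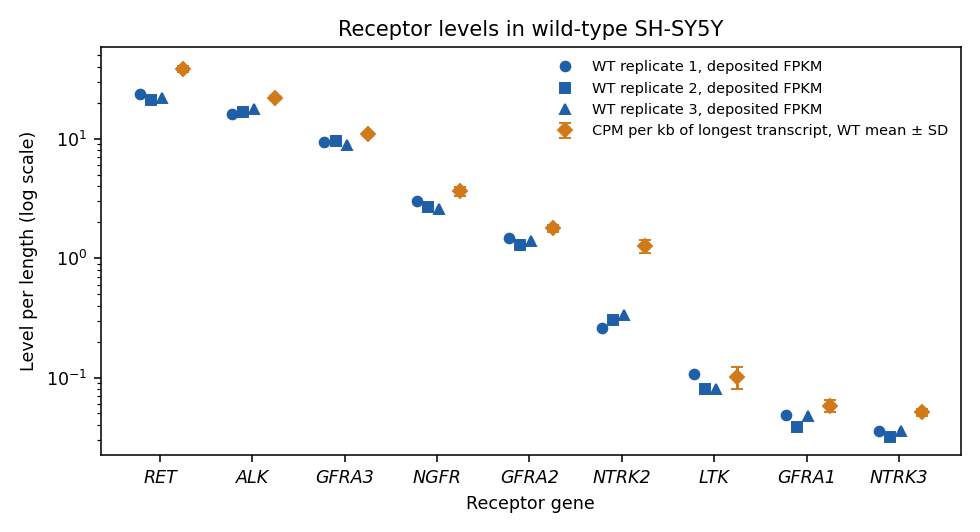
Levels of the 9 receptor genes in the 3 WT libraries on a log axis: blue symbols are deposited FPKM per library, and orange diamonds are CPM per kilobase of the longest GENCODE 29 transcript, mean ± SD. RET (22.3 FPKM) and ALK (16.96 FPKM) lead, and GFRA1 and NTRK3 lie together at the bottom on the second scale.

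Among 51 receptor tyrosine kinase genes with a row in the table (46 from a list and the 5 kinase genes here), RET ranked 1 and ALK ranked 2 in WT FPKM. The next was PTK7, a pseudokinase receptor of planar polarity signalling, at 14.6 ± 0.878 FPKM (13.8 to 15.6), below every ALK value (16.3 to 17.8). The place of ALK depended on the length: per kilobase of the longest transcript PTK7 had 27.2 ± 1.59 and ALK 21.9 ± 1.01 CPM, while RET stayed first at 38.6 ± 2.19. NTRK2 ranked 30, LTK 37 and NTRK3 41 in FPKM, and per kilobase of the longest transcript NTRK2 ranked 25.

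**Figure D2:**
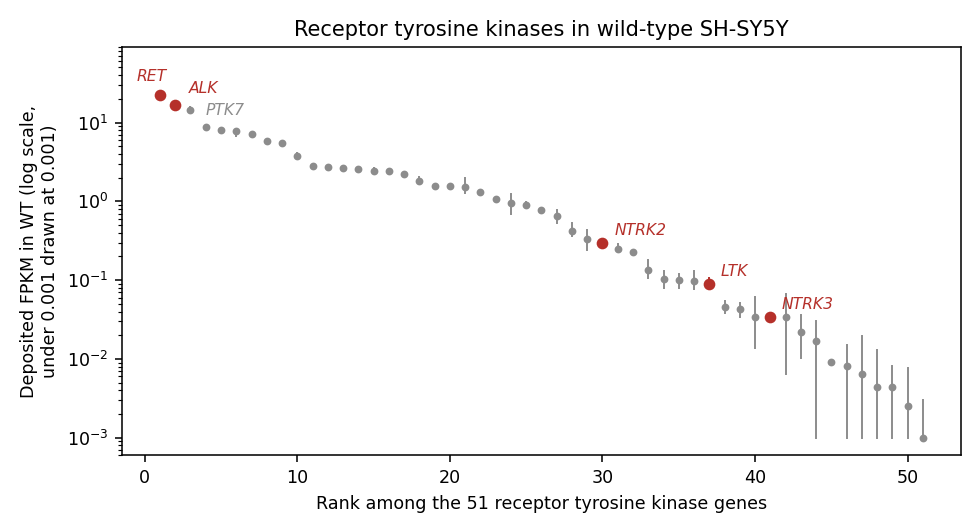
Mean deposited FPKM in WT (log axis) of 51 receptor tyrosine kinase genes by rank, with lines from the lowest to the highest of 3 libraries; values under 0.001 are drawn at 0.001. RET and ALK take ranks 1 and 2 just above PTK7, and NTRK2, LTK and NTRK3 take ranks 30, 37 and 41.

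The comparison of KO with WT asks which of these receptors differed with the OTULIN genotype, and 1 gene stood on its own side. NTRK3 was higher in every KO library, RET, ALK, GFRA3, NGFR, GFRA2, GFRA1 and LTK had no counts in any KO library, and NTRK2 had counts in 1 of 3. CPM did not overlap between the groups for 8 of the 9 genes, where 69.1% of all genes did not overlap. The 7 genes at 0 in KO compare with 88.9% of all genes. In bulk RNA, fewer cells of a type and less RNA per cell cannot be told apart. Depth and composition moved with the genotype at every gene, and their part was not tested.

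NTRK3 had 104, 98 and 101 counts in KO replicates 1 to 3 and 65, 61 and 66 in the WT replicates, although the WT libraries held 78.5 times as many counts on average. More raw counts in KO than in WT were seen in 1.06% of tested genes. Scaled to library totals, NTRK3 stood at 128, 114 and 139 CPM in KO (127 ± 12.8, SD, n = 3) and at 1.02 ± 0.0639 CPM in WT. Every KO library lay far above every WT library, and the ratio of the means was 125. The fitted log2 change was 6.56 (SE 0.09, edgeR's quasi-likelihood test, Benjamini-Hochberg adjusted p = 4.4e-07). In FPKM, NTRK3 had 4.24, 3.75 and 4.66 in KO against 0.0344 ± 0.00217 in WT. Other scalings moved the fitted change to 5.996 (median-ratio factors) and 6.95 (library totals alone), and leaving out any 1 library gave 6.52 to 6.62.

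The gene lies on chromosome 15 (87859751 to 88256791, minus strand, hg38) and overlaps no other gene of the table. Against the deposited counts, the WT share of NTRK3 would have given 2.45 counts in the 3 KO libraries together, and 303 were seen. NTRK3 was the only one of the 51 receptor tyrosine kinase genes with more raw counts in KO than in WT. It held 303 of the 569 KO counts of these genes, 53.3%, and 0.0797% of their WT counts. In KO FPKM it ranked 2 behind DDR2, a collagen receptor, at 6.35 ± 1.21 (4.98 to 7.21, not overlapping NTRK3), and ahead of DDR1, another collagen receptor, at 0.788 ± 0.515. These 3 were the only ones of the 51 with a count in every KO library. Of the 51, 38 had none in any, beside 88.9% of all genes. The DDR2 mean in KO was 79.4 ± 14.8 CPM, under the 127 ± 12.8 CPM of NTRK3, so the place of DDR2 above NTRK3 rested on the length. In WT the DDR2 mean was 93.9 ± 9.84 CPM, and the test called DDR2 lower in KO (log2 -0.65, SE 0.13, edgeR adjusted p = 0.0021).

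**Figure D3:**
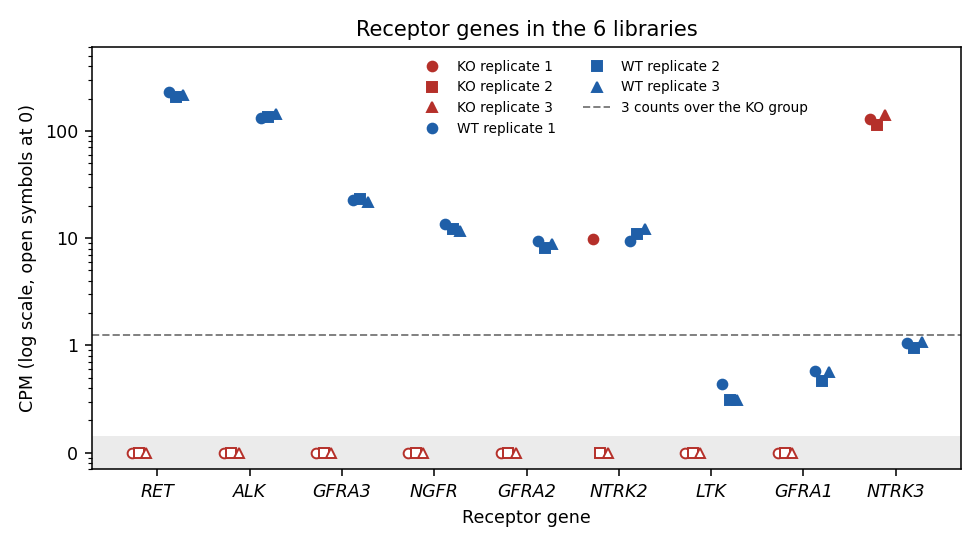
CPM of the 9 receptor genes in each of the 6 libraries (log axis; red KO, blue WT; open symbols in the grey band are 0), with a dashed line at 3 counts over the KO group, 1.25 CPM. NTRK3 alone is higher in KO (114 to 139 CPM), NTRK2 has 1 KO library with counts, and the other 7 genes are at 0 in KO.

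RET had 14451, 13400 and 13288 counts in the WT replicates and 0 in all KO libraries. WT stood at 219 ± 12.4 CPM, and against a floor of 3 counts over the 2398362 counts of the KO group RET was at least 175-fold lower. The edgeR quasi-likelihood test gave an adjusted p of 1.2e-05. Its fitted log2 value for a gene at 0 depends on the prior count, so the fold against the floor is given instead here and for the genes that follow. At its WT share RET would have had 524 counts in the 3 KO libraries together. RET lies on chromosome 10 (43077064 to 43130271, plus strand).

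ALK had 8143, 8713 and 8851 counts in WT and 0 in all KO libraries, at least 109-fold lower than 137 ± 6.27 CPM in WT (edgeR, adjusted p = 1.2e-05). Its WT share would have given 327 KO counts. ALK lies on chromosome 2 (29192774 to 29921586, minus strand) and overlaps CLIP4 on the opposite strand by 7004 bases. CLIP4 had 2293 to 2812 counts in WT and 0 in KO, and without a stated strand setting some reads of the pair cannot be told apart. LTK, on chromosome 15 (41503637 to 41513879, minus strand), was at 0.351 ± 0.0721 CPM in WT, under the KO floor of 1.25 CPM. Its WT share would have given 0.841 KO counts, so a difference was not detectable at this depth.

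The 3 GFRA genes were at 0 in every KO library. GFRA3 had 1398, 1482 and 1331 counts in WT, 22.3 ± 0.749 CPM, and was at least 17.9-fold lower in KO (edgeR, adjusted p = 2.6e-05). GFRA2 had 580, 520 and 543 counts in WT, 8.73 ± 0.623 CPM, and was at least 6.98-fold lower. With a mean of under 1 FPKM over the 6 libraries GFRA2 was not among the tested genes, and with no filter its edgeR adjusted p was 0.000375, where 45.0% of all genes were called. GFRA1 had 36, 30 and 35 counts in WT, 0.537 ± 0.0618 CPM, under the KO floor, and 1.29 KO counts would match its WT share. The zeros thus bear on GFRA3 and GFRA2 and say little of GFRA1. GFRA3 lies on chromosome 5 (138252380 to 138274621, minus strand), GFRA1 on chromosome 10 (116056925 to 116276803, minus strand) and GFRA2 on chromosome 8.

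In WT, NGFR had 851, 782 and 717 counts, and in KO it had 0. The gene lies on chromosome 17 (49495293 to 49515008, plus strand). It was at least 9.98-fold lower than 12.5 ± 1.07 CPM in WT (edgeR, adjusted p = 0.000101), and 29.9 KO counts would match its WT share. The margin between its WT level and the KO floor was smaller than those of RET and ALK.

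NTRK2, on chromosome 9 (84668375 to 85027054, plus strand), was the one receptor whose groups overlapped. It had 8, 0 and 0 counts in the KO replicates and 587, 707 and 754 in WT. KO replicate 1 alone reached 9.88 CPM, inside the WT range of 9.44 to 12.2 CPM, and without it NTRK2 was at 0 in KO. The KO mean was 3.29 ± 5.71 CPM, 3.30-fold below WT at 10.9 ± 1.39, and the pooled KO level was 3.34 CPM with an exact 95% Poisson interval of 1.44 to 6.57, which covers counting error only. NTRK2 fell under the filter of 1 FPKM. With no filter the fitted log2 difference was -2.23 (SE 0.80, edgeR adjusted p = 0.069), and with a filter of at least 10 counts, chosen after seeing the data, the edgeR adjusted p was 0.042 and 61.3% of the genes were called, so its call turned on the filter.

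**Figure D4:**
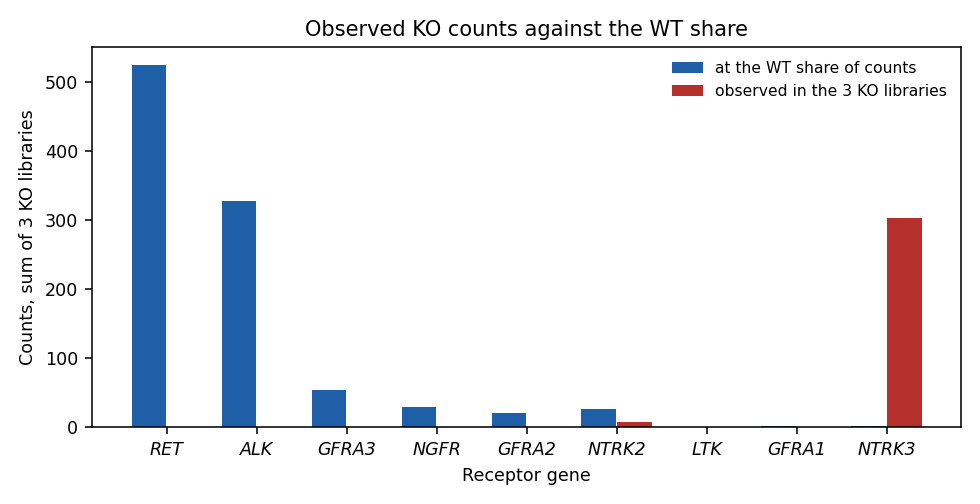
Counts of each receptor gene summed over the 3 KO libraries (red bars) beside the counts its WT share of all counts would give at the same depth (blue bars). RET (524) and ALK (327) would have been plainly visible and were at 0, NTRK3 had 303 where 2.45 would match WT, and GFRA1 (1.29) and LTK (0.841) would have had about 1 count.

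Of the 9 genes, 5 passed the filter (1 FPKM or more on average across all libraries), and all 5 were called at an adjusted p under 0.05: NTRK3 higher, and RET, ALK, GFRA3 and NGFR lower. Among all 10820 tested genes 95.6% were called, 88.0% lower and 7.63% higher, so a call by itself does not set these receptors apart. The median fitted log2 change of the 5 was -12.48, beside -12.42 over all tested genes. With genes at 0 in KO set to their bound these medians were -4.16 and -4.57. NTRK3 passed the filter only through its KO libraries and the other 4 only through WT, so all 5 had to differ and their count is no support for an effect. Leaving out any 1 library kept 5 calls.

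All 10 ligand genes with a row were at 0 in the 3 KO libraries, as were 88.9% of all genes, and GDNF and ALKAL1 were not analysed here. The 3 that were tested passed the filter only through WT and were lower in KO: MDK (midkine) at least 352-fold from 185 ± 21.4 FPKM in WT, PTN (pleiotrophin) at least 20.3-fold from 14.3 ± 0.551 FPKM, and NRTN (neurturin) at least 3.02-fold from 2.26 ± 0.367 FPKM. PSPN (persephin), at 1.34 ± 0.228 FPKM in WT, was not tested. In WT the FPKM of MDK, a heparin-binding growth factor, exceeded that of ALK by 10.9 ± 1.73 times, whereas PTN was at 0.847 ± 0.0462 of ALK. BDNF, the TrkB ligand, and NTF3, the TrkC ligand, had at most 39 and 3 counts in a WT library.

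Partner genes changed in both directions. Of 16 co-receptors and partners 8 were tested, of which 6 were lower, 1 was higher and 1 did not pass. Over all tested genes 88.0% were lower and 7.63% higher. Here and in the lists that follow, tested genes at 0 in KO passed the filter only through WT, so they had to come out lower. They were 5 of these 8, beside 71.3% of all tested genes. MAGED1, an adaptor that binds p75, had 961, 868 and 994 counts in KO and 25001 to 27542 in WT, and rose 2.83-fold in CPM (log2 1.10, edgeR adjusted p = 4.8e-05). Its fitted log2 change was 0.54 with median-ratio factors. BEX3, another p75 partner, was at least 78.1-fold lower from 80.5 ± 4.27 FPKM in WT, and the sortilin family gene SORCS1 was at least 89.7-fold lower. NCAM1, an adhesion molecule that can bind GDNF with GFRα1, was 9.68-fold lower. LINGO1, a partner of p75 in myelin inhibitor signalling, had 24 counts in KO replicate 2 and 0 in the other KO libraries and did not pass (log2 -0.06, edgeR adjusted p = 0.96).

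Of the adaptors that couple the kinases to RAS, 18 of 20 tested fell, 1 rose and 1 did not pass, where 88.0% of all tested genes fell. Of the 20 tested, 14 were at 0 in KO, beside 71.3% of all tested genes. SHC1 was at least 280-fold lower from 73.9 ± 1.28 FPKM in WT, DOK4 at least 244-fold and GRB2 at least 136-fold, all 3 with 0 counts in KO. CRKL was 5.11-fold lower. Its relative CRK rose, 2.44-fold in CPM (log2 0.88, edgeR adjusted p = 0.00058), and the fitted change was 0.32 with median-ratio factors and 1.29 with library totals alone. FRS2, which docks on the Trk receptors, had 0, 23 and 32 KO counts and did not pass (edgeR adjusted p = 0.104).

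In the RAS-MAPK cascade 5 of 20 tested genes rose, 14 fell and 1 did not pass, and 9 of the 20 were at 0 in KO. Over all tested genes 7.63% rose, 88.0% fell and 71.3% were at 0 in KO. The small GTPase RAP1B was 26.2-fold higher in CPM, though near-identical copies of it in the genome make its counts uncertain. The kinase gene RPS6KA3 was 9.40-fold higher, RAP1A 5.50-fold and the RAS GTPase-activating protein gene RASA1 4.40-fold. With median-ratio factors the fitted log2 changes of these 4 were 3.75, 2.29, 1.49 and 1.17, in the same order. On the other side HRAS was at least 36.5-fold and MAP2K2 at least 110-fold lower, and NRAS was 66.5-fold lower on 4, 0 and 0 KO counts. BRAF did not pass (log2 0.08, -0.48 with median-ratio factors and 0.47 with library totals alone).

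In the PI3K-AKT branch 1 of 15 tested genes rose, 11 fell and 3 did not pass, and 7 of the 15 were at 0 in KO. Over all tested genes 7.63% rose, 88.0% fell and 71.3% were at 0 in KO. With library totals alone the split was 4 higher and 11 lower, beside 922 higher and 9371 lower of all 10820 tested genes. AKT1 was at least 191-fold, RHEB at least 128-fold and PIK3R2 at least 112-fold lower, all with 0 counts in KO. Among ERK feedback genes and early targets 12 of 14 tested genes fell, 1 rose and 1 did not pass, beside the same 88.0% and 7.63%. Of the 14, 6 were at 0 in KO, beside the same 71.3%. VGF, a neurotrophin-induced secretory gene with 614 ± 63.4 FPKM in WT, had 4, 0 and 0 counts in KO, 1089-fold lower in CPM. The phosphatase gene DUSP6 was at least 127-fold lower, the ETS factor gene ETV4 20.6-fold and the feedback inhibitor gene SPRY2 3.70-fold. SPRED1, another inhibitor of this pathway, rose 2.77-fold in CPM (log2 1.07, and 0.51 with median-ratio factors).

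Over the 6 lists together 80 of 107 genes with a row were tested: 9 rose, 64 fell and 7 did not pass, beside 7.63% higher and 88.0% lower over all tested genes. Of the 80, 44 (55%) were at 0 in KO, beside 71.3% over all tested genes. These 44 passed the filter only through WT, so they had to come out lower. The median fitted log2 change of the 80 was -11.77, beside -12.42 over all tested genes. With genes at 0 in KO set to their bound these medians were -5.12 and -4.57. The largest fitted log2 change among the 9 that rose was 4.31, of RAP1B, beside 6.56 for NTRK3. Of the 46 other receptor tyrosine kinases 15 were tested and all 15 fell, 6 of them with 0 counts in KO. All of these but DDR2 had a KO mean under 1 FPKM and passed the filter only through WT, so they had to come out lower. With library totals alone 14 of the 15 were called, the exception being DDR2 (log2 -0.25, edgeR adjusted p = 0.17).

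**Figure D5:**
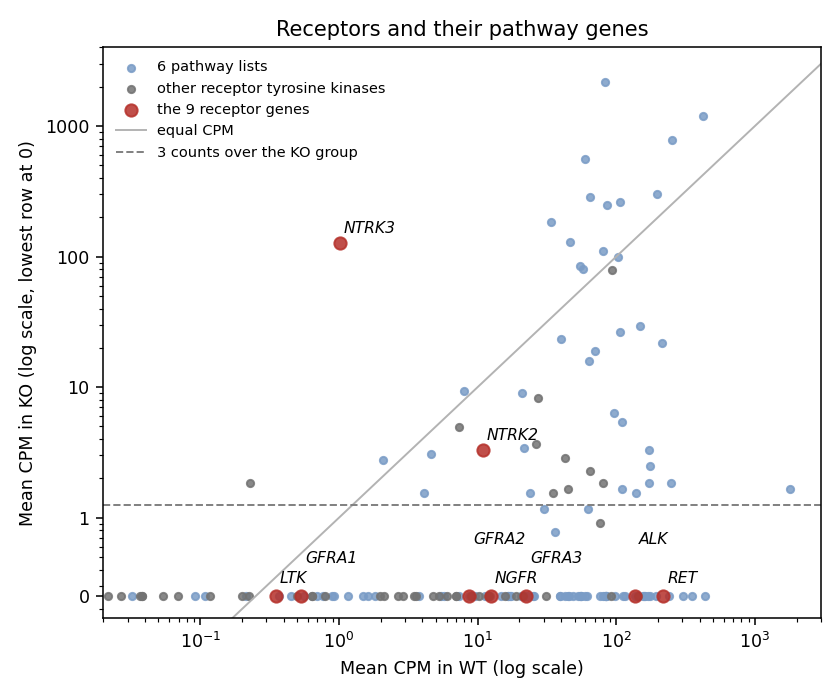
Mean CPM in KO against mean CPM in WT (log axes; the lowest row holds genes at 0 in KO) for the 9 receptor genes (red), 6 lists of pathway genes (blue) and other receptor tyrosine kinases (grey), with a solid line at equal CPM and a dashed line at 1.25 CPM. NTRK3 lies furthest above the line at 127 against 1.02 CPM, and RET and ALK lie in the row at 0.

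Markers of other cell types were read beside the NTRK3 difference. Over all genes 88.9% were at 0 in KO, and of all tested genes 88.0% fell and 7.63% rose. Of 10 Schwann cell and glia markers 8 had a row and none was tested: 6 were at 0 in KO, and the sum was 0, 26.7 and 15.2 CPM in KO and 1.71 to 3.50 CPM in WT. Of 12 mesenchymal markers 11 had a row, 4 of them at 0 in KO, and their sum was 74.2 to 167 CPM in KO and 841 to 874 CPM in WT. Of the 8 that were tested 6 fell, 1 did not pass and the collagen gene COL1A1 rose, 5.10-fold in CPM (log2 1.92, edgeR adjusted p = 0.0019). COL6A3, another collagen gene, was not tested and had 8.60 ± 8.29 CPM in KO and 1.25 ± 0.953 CPM in WT. Of 7 epithelial markers 1 was at 0 in KO, with a sum of 17.3 to 73.0 CPM in KO and 7.97 to 46.2 CPM in WT, where WT replicate 3 stood highest. Of 9 blood cell markers 7 had a row, 4 of them at 0 in KO, with a sum of 4.64 to 26.2 CPM in KO and 0.129 to 2.77 CPM in WT. The part of these cells in the NTRK3 difference was not tested.

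The genes most like each abundant receptor were sought by the root mean square distance in log2(CPM + 1) over the 6 libraries, among 8747 tested genes with a standard symbol. ALK lay nearest to SLC39A9 (0.0111) and PSMC1 (0.0132), and RET to AKR1B1 (0.0229) and JPT1 (0.0322). GFRA3 lay nearest to TBC1D7 (0.0102) and ASB8 (0.0128), NGFR to CTU1 (0.0140) and DNAL4 (0.0185), and GFRA2 to MAGEE1 (0.0167) and LRRC23 (0.0253). All 10 neighbours were at 0 in KO like the receptors, so the distances reflect mainly their WT levels in 3 libraries.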

How the data were processed

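The 6 poly(A) RNA libraries of SH-SY5Y (3 KO, 3 WT) were grouped by their titles. Counts per gene are whole numbers as the authors deposited them, and FPKM are the authors' values, per the file headers. Listed without role or order in the submitters' processing notes are hg38, StringTie 1.3.4d, HISAT2 2.0.4, cutadapt 1.9 and DESeq2. Which annotation and strand setting were used is not given in the sources used here, so overlapping genes and near-identical copies can share reads. The 9 genes and all lists were chosen with earlier results of these data known.

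Levels between genes were compared in FPKM, and libraries in CPM, which are counts per 1000000 of a library's total. Genes averaging 1 FPKM or more across all libraries (10820 of 32862) were tested on counts with edgeR 4.0.16 (glmQLFit and glmQLFTest, TMM factors, R 4.3.3), with genotype as the only term and Benjamini-Hochberg adjustment over all tested genes. A call has an adjusted p under 0.05. The SE of a log2 change is its size divided by the root of the F statistic. Folds are ratios of mean CPM. A gene at 0 in all KO libraries has its fold against 3 counts over the KO group (1.25 CPM). Floors and intervals cover counting error only, and no molecular identifiers are given. The floor of 3 counts was 3.48 to 4.13 CPM in a single KO library and 0.0466 to 0.0486 CPM in a WT library. The fit was tested on simulated data first.

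Genes named beside the 9 are, from each list, the 4 highest in WT and up to 4 called higher, and the 2 nearest in level for each receptor with a WT mean of at least 1 FPKM. Some genes that this rule names are not reported here. DDR1, LINGO1, FRS2, BRAF, BDNF, NTF3, COL6A3 and CLIP4 were named where a count or comparison turned on them, after their values were seen. Chi-square per degree of freedom between replicates was 15.5 to 41.7, so no library was counted again under another name. Alternatives were other scalings, filters and tools (DESeq2 1.42.0, limma 3.58.1 on log2(FPKM + 1) and log2(FPKM + 0.1)), a replicate block, leaving out each library, and, chosen after seeing the data, a filter of at least 10 counts in total and the length of the longest GENCODE 29 transcript. Median-ratio factors gave a median log2 change of 0.01 over the 1496 tested genes with at least 30 KO counts, beside 0.57 with TMM and 0.96 with library totals alone.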

Additional observations from a re-analysis of the deposited data

How the results depend on the processing

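All 5 tested receptors were called under every scaling, tool and left-out library (5 to 5 without 1 library). Each had passed the filter through KO alone or WT alone, so it had to differ, and these calls are no support for an effect. The main fit called 95.6% of all tested genes. A filter of at least 5 FPKM left 2 receptors, both called, and 41 pathway genes, of which 40 were called. It also left 2 other receptor tyrosine kinases, both called. Of all 4719 genes under that filter 653 were called higher and 3851 lower. With no filter 30 of 46 other receptor tyrosine kinases were called, beside 45.0% of all genes. With at least 10 counts in total 31 of 41 were called, beside 61.3% of all genes tested there. Deviations of same-numbered libraries correlated at 0.01, -0.01 and 0.03. At the depth of the KO libraries these values cannot exclude a pairing by library number, which the labels do not state. The fit with a replicate block called 1 receptor (NTRK3, adjusted p = 0.011, edgeR), 10 of the 80 pathway genes in place of 73, and 0 of 15 other receptor tyrosine kinases. Over all 10820 tested genes that fit called 452 higher and 289 lower, in place of 826 and 9519. The loss of calls was thus general and not particular to these genes. Under that block the edgeR adjusted p was 0.074 for RET, 0.079 for ALK, 0.096 for GFRA3 and 0.106 for NGFR. Calls ranged from 72 to 74 for pathway genes and from 15 to 15 for the other kinases without 1 library. Over all 10820 tested genes these fits called 792 to 847 higher and 9387 to 9534 lower. The NTRK3 log2 change ranged from 2.33 to 6.95 over 14 alternatives, all called, the lowest on log2(FPKM + 1), and no result changed direction. Of 8 neighbouring pairs in the WT order, 7 stayed apart per longest transcript and 8 on the other scales. KO depth limits GFRA1 and LTK, where 3 counts over the group exceed the WT level, and NTRK2, which rests on 1 KO library.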
